A study of Rattus norvegicus with 6 samples.

Results

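Potassium channel subunits were examined by RNA-seq in NRCFs, the primary fibroblasts of neonatal rat heart, here from pups no more than 3 days old. The members were the genes whose symbol begins with Kcn and that had 10 or more counts in at least 3 of the 6 libraries, with Kcnj8 left out by the rule. Of 93 Kcn symbols among the 21857 symbols in the files, 30 were kept, 62 were under the count rule and 1 was left out by name. The libraries formed 2 groups of 3. The Vector group carries the genotype label WT and received the empty pcDNA plasmid, and the group labelled FTO overexpression received the same plasmid carrying a cDNA of rat FTO. FTO is a demethylase that acts on N6-methyladenosine (m6A) in RNA. The strain is labelled Noway, while the series design names Sprague-Dawley rats, and neither the labels nor the methods say whether replicates came from separate cultures, so the p-values measure the spread between libraries, which may be technical. Cells were separated from heart muscle cells by differential adhesion, and each value is an average over transfected and untransfected cells of every type present.

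Potassium channels let potassium leave the cell down its gradient and so hold or restore the negative membrane potential. Most are assembled from pore-forming subunits, grouped by what opens them (voltage, intracellular calcium or sodium, or leak through tandem-pore channels) and by the inward rectifiers, which pass current best near the resting potential. Accessory subunits bind these pores and change their gating or their transport to the membrane. In cardiac fibroblasts, which do not fire action potentials, potassium currents are known to set the resting potential and to bear on calcium entry and proliferation.

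The level of Fto was 87.4 to 89.6 CPM (counts scaled to library size) in the Vector libraries and 90.8 to 93.2 CPM in the libraries labelled FTO, a log2 change of 0.06 with an adjusted p-value of 0.239. The groups did not overlap, but the difference did not pass the threshold, and its 95% interval ran from -0.04 to 0.16 on the log2 scale. The second group is therefore called the libraries labelled FTO throughout. The study itself reports checks of the FTO plasmid by quantitative PCR and by FTO protein, and lower m6A on a dot blot of cardiac fibroblasts. Whether those assays used the cells of these libraries is not stated. Libraries held 13178952 to 17857999 counts, of which 2250 to 3409 fell on the 30 members. All 6 fibroblast markers examined were detected in each group, with a summed level of 806 to 822 CPM in Vector and 7460 to 7684 CPM in the libraries labelled FTO. Pdgfra, Dcn, Lum and Thy1 were higher there and Tcf21 and Ddr2 lower, and Dcn alone went from 47.0 ± 1.57 to 5611 ± 221 CPM (mean ± SD, n = 3). Markers of other cells were present too. Their summed levels in Vector and in the libraries labelled FTO were 1232 to 1257 and 1604 to 1652 CPM for 7 cardiomyocyte markers (6 higher, 1 lower), 1293 to 1332 and 603 to 647 CPM for 7 pericyte and smooth muscle markers (1 higher and 5 lower of 6 tested), 24.5 to 25.0 and 52.9 to 55.8 CPM for 6 endothelial markers (4 higher and 0 lower of 5 tested). They were 344 to 367 and 84.4 to 105 CPM for 7 macrophage markers (1 higher, 6 lower, with C1qb and C1qc at no more than 2 counts in any library labelled FTO), and 124 to 130 and 80.9 to 85.1 CPM for 8 neuron and Schwann cell markers (2 higher and 3 lower of 6 tested, with Snap25 at 0 in every Vector library and Syp at no more than 8 counts in any library). In bulk RNA, fewer cells of a type and less RNA per cell cannot be told apart.

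The potassium channel subunits changed in both directions. Kcnmb1, the smooth muscle accessory subunit of the large-conductance calcium-activated channel, and Kcnv2, a silent voltage-gated subunit, fell most, by 20.5-fold and 9.11-fold. Kcnt1, a sodium-activated channel, rose most, 14.5-fold. Kcnd3, the transient outward channel subunit, and the tandem-pore channel subunit Kcnk2 fell by 2.67-fold and 3.83-fold, while Kcnq5, Kcnj5 and Kcnk5 rose 2.03-fold, 2.09-fold and 2.62-fold.

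Of the 30 members, 29 entered the edgeR quasi-likelihood test, and Kcnj9 had too few counts. An adjusted p-value under 0.05 was reached by 22 of the 29 (75.9%), against 65.9% of all 12941 genes tested. Of these, 10 were higher in the libraries labelled FTO, where 33.2% of all genes were, and 12 were lower, where 32.8% of all genes were. In 22 of the 29 the groups were fully separated in CPM, against 70.3% of all genes. These shares lay near the background. The threshold of the study was a log2 change of at least 1 in either direction with an unadjusted p-value under 0.05. It was passed by 17 of the 29 (58.6%), 5 higher and 12 lower, against 19.6% of all genes tested. Of all genes, 1340 passed it higher in the libraries labelled FTO and 1199 lower. Among genes with a mean under 100 counts per library, 10 of 20 members and 35.6% of all genes passed it, and at a mean of 100 counts or more 7 of 9 members and 15.0% of all genes. The median log2 change was -0.25 over the 29 members and 0.00 over all genes. Kcne2 and Kcnt2 met the count rule only through Vector libraries and Kcnn3 only through libraries labelled FTO, so these 3 had to differ. Without them 19 of 26 passed the adjusted threshold and 14 of 26 the threshold of the study, 4 higher and 10 lower.

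**Figure D1:**
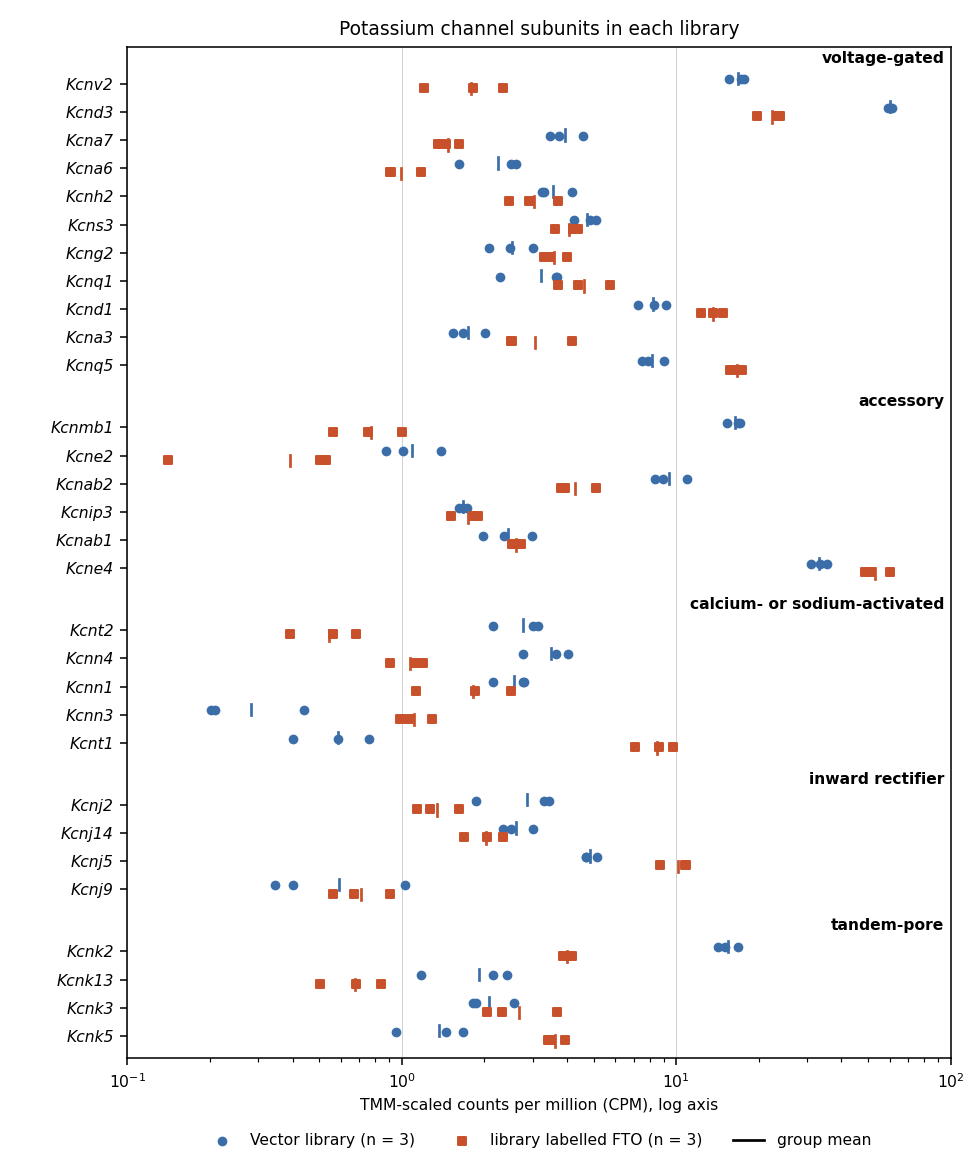
TMM-scaled CPM (log axis) of the 30 kept potassium channel subunits in each of the 3 Vector libraries (circles) and the 3 libraries labelled FTO (squares), with group means as vertical strokes, ordered within each class by log2 change. Kcnmb1, Kcnv2, Kcnd3 and Kcnk2 lay wholly to the left in the libraries labelled FTO, and Kcnt1, Kcnq5, Kcnj5, Kcnd1 and Kcne4 wholly to the right.

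Voltage-gated subunits made up 11 of the members, all tested, with 5 higher, 4 lower and 2 not past the adjusted threshold, and a median log2 change of -0.22. They form or join tetrameric channels that open on depolarization. Summed over the class, Vector libraries held 113 to 117 CPM and libraries labelled FTO 72.0 to 78.2 CPM, and, with no scaling to length, Kcnd3 gave 60.0 ± 1.12 and 22.4 ± 2.29 CPM (mean ± SD, n = 3) of these sums.

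Kcnd3 encodes the pore of the fast transient outward current, which shapes early repolarization in the heart. It lay at 59.9, 59.0 and 61.2 CPM in Vector replicates 1, 2 and 3 and at 23.5, 19.7 and 23.8 CPM in those labelled FTO. Every library labelled FTO was below every Vector library, and the fall was 2.67-fold (95% confidence interval 2.40 to 2.98), a log2 change of -1.42 (SE 0.0735, adjusted p-value 1.4e-10). Its relative Kcnd1 moved the other way. Kcnd1 was at 9.14, 7.25 and 8.31 CPM in Vector and 14.9, 13.6 and 12.3 CPM in the libraries labelled FTO, again with no overlap, and rose by 1.65-fold (interval 1.37 to 1.97, adjusted p-value 9.9e-05). These channels usually carry potassium channel interacting proteins, small calcium-binding partners. Of these, Kcnip3 did not pass the threshold, Kcnip2, the partner known from heart muscle, had 0 counts in all 6 libraries, Kcnip1 had at most 1 count and Kcnip4 at most 4. A count of 0 allows up to 3 counts, or 0.168 to 0.228 CPM by library, for counting error only.

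Among the Shaker-type subunits, Kcna7 and Kcna6 were lower and Kcna3 higher. Kcna7, known from muscle, went from 3.73, 4.56 and 3.46 CPM in Vector to 1.61, 1.36 and 1.45 CPM in the libraries labelled FTO, and its groups were well separated. The fall was 2.65-fold (interval 1.92 to 3.65), with an adjusted p-value of 3.8e-05. Kcna6, known from neurons, went from 1.61, 2.62 and 2.49 CPM in Vector to 0.912, 0.906 and 1.17 CPM in the libraries labelled FTO, with Vector replicate 1 nearest to the other group, a log2 change of -1.15 (SE 0.285, adjusted p-value 0.00243). Kcna3, which is known as the channel of activated T cells and macrophages, was at 1.54, 1.68 and 2.01 CPM in Vector and 2.53, 2.49 and 4.19 CPM in the libraries labelled FTO. FTO replicate 3 stood highest, and the log2 change of 0.84 (SE 0.259, adjusted p-value 0.00989) was 0.52 with an adjusted p-value of 0.0969 without that library. Macrophage markers, by contrast, summed to a lower level in the libraries labelled FTO, as given above, and their part in the Kcna3 value was not tested.

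Kcnq5, a subunit of the slow non-inactivating M-type current, was at 7.54, 9.06 and 7.89 CPM in Vector and 15.6, 16.8 and 17.3 CPM in the libraries labelled FTO. All 3 of the latter lay well above Vector, a rise of 2.03-fold (interval 1.73 to 2.39) with an adjusted p-value of 7.2e-07. Kcnq1, the pore of the slow delayed rectifier of heart muscle, was at 3.66, 2.28 and 3.67 CPM in Vector and 3.72, 4.38 and 5.75 CPM in the libraries labelled FTO. Vector replicates 1 and 3 nearly touched FTO replicate 1, and the rise measured 0.55 on the log2 scale (SE 0.221, adjusted p-value 0.0393). It did not pass with DESeq2 (0.0715), without Vector replicate 2 (0.190, log2 change 0.35) or without FTO replicate 3 (0.211, log2 change 0.34). Kcnh2, the pore of the rapid delayed rectifier, had overlapping groups at 4.17, 3.29 and 3.25 CPM in Vector and 2.46, 3.70 and 2.90 CPM in the libraries labelled FTO, and its log2 change of -0.25 (95% interval -0.69 to 0.19) did not pass (adjusted p-value 0.305).

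The electrically silent subunits carry no current alone and are known to join delayed rectifier pores such as Kcnb2 and change their gating. Kcnv2, best known from photoreceptors, was at 17.3, 15.6 and 17.7 CPM in Vector and 1.82, 1.21 and 2.35 CPM in the libraries labelled FTO. The lowest Vector library was several times the highest library labelled FTO, and the fall was 9.11-fold (interval 7.10 to 11.7), a log2 change of -3.19 (SE 0.168, adjusted p-value 1.7e-10). In the RefSeq annotation Kcnv2 overlaps Pum3, and without strand reads from the shared stretch cannot be told apart. Pum3 was at 26.0 ± 1.19 and 20.9 ± 1.54 CPM (mean ± SD, n = 3), a log2 change of -0.32. Kcng2 was at 2.49, 3.02 and 2.08 CPM in Vector and 4.0, 3.47 and 3.29 CPM in the libraries labelled FTO, a log2 change of 0.50 (SE 0.203) whose adjusted p-value of 0.0431 did not hold with DESeq2 (0.113) or in 4 of the 6 fits that left out a library. Those 4, which omitted Vector replicate 1, Vector replicate 3, FTO replicate 1 or FTO replicate 2, gave 0.0943, 0.171, 0.146 and 0.0580. Kcns3, at 5.12, 4.23 and 4.85 CPM in Vector and 4.21, 4.38 and 3.63 CPM in the libraries labelled FTO, had the smallest change of the class, a log2 change of -0.22 (95% interval -0.58 to 0.13, adjusted p-value 0.244). Kcnb2 was under the count rule, with 5, 10 and 11 counts in Vector and 0, 0 and 0 in the libraries labelled FTO.

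**Figure D2:**
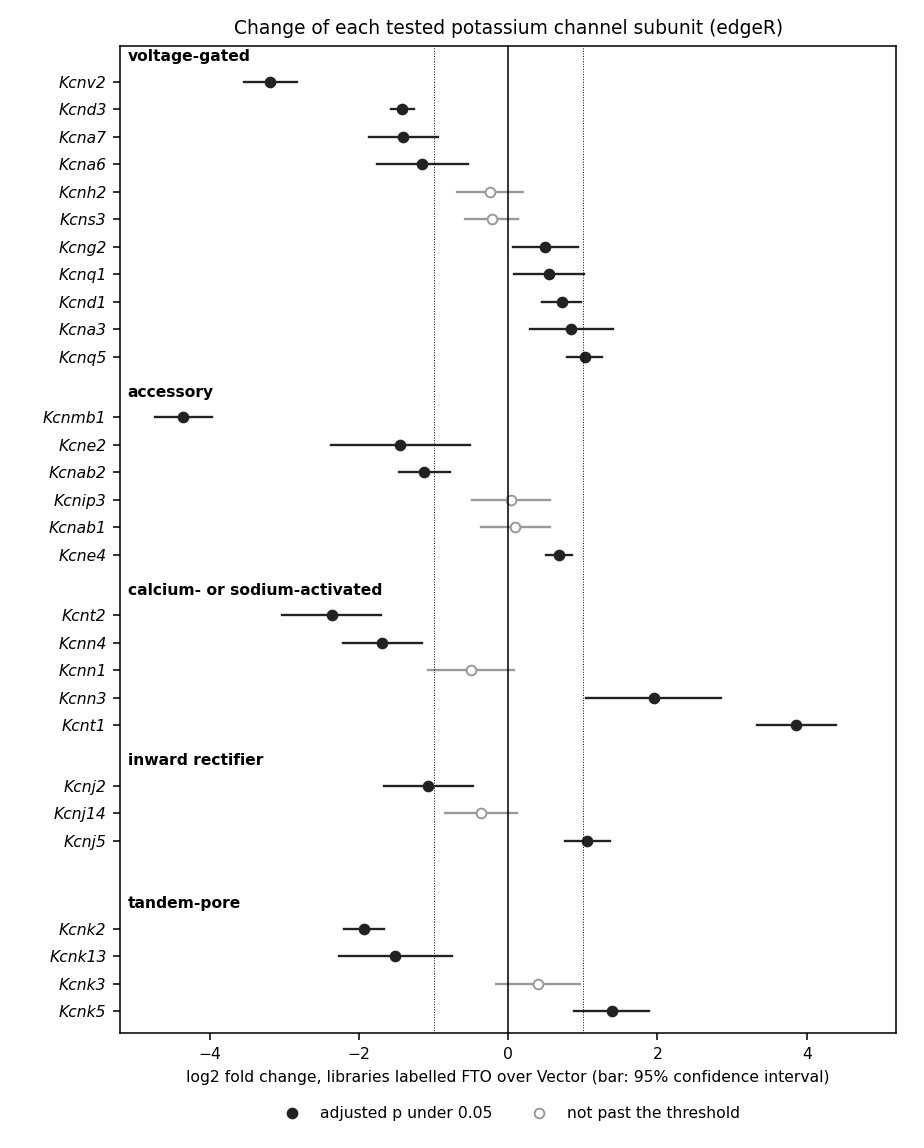
Log2 change from Vector to the libraries labelled FTO for the 29 tested potassium channel subunits, by class, with 95% confidence intervals as bars and dotted lines at a 2-fold change. Filled points had an adjusted p-value under 0.05 in edgeR, 10 to the right of 0 and 12 to the left, and the 7 open points did not. Kcne2, Kcnt2 and Kcnn3 met the count rule through a single group, which fixed their direction. Without them the filled points are 9 to the right and 10 to the left.

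The 6 accessory subunits split into 1 higher, 3 lower and 2 not past the adjusted threshold. Kcnmb1 encodes the beta subunit that raises the calcium sensitivity of the large-conductance channel and is typical of smooth muscle. It was at 15.3, 17.0 and 16.8 CPM in the Vector libraries and 0.561, 0.755 and 1.01 CPM in those labelled FTO, from 209, 254 and 242 counts down to 8, 10 and 18. The groups lay far apart, and the fall was 20.5-fold (interval 15.7 to 26.7), a log2 change of -4.36 (SE 0.179, adjusted p-value 8.2e-12). Kcnma1, the pore it is known to serve, had 3, 1 and 4 counts in Vector and 0, 4 and 0 in the libraries labelled FTO, at or close to the floor of 3 counts. Kcnip1, which overlaps Kcnmb1 in the annotation, had at most 1 count. Of 6 pericyte and smooth muscle markers tested, 5 were lower and 1 higher. Myh11 and Cnn1 moved with Kcnmb1, with log2 changes of -3.53 and -3.57 (adjusted p-values 4.9e-16 and 3.4e-16), while Des rose by 2.45 on the log2 scale (adjusted p-value 3.8e-15). The part of these cells in the fall of Kcnmb1 was not tested.

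Kcne4, a small membrane protein known to inhibit Kcnq1 and some Shaker-type channels, had the most counts of all members. It was at 33.3, 31.1 and 35.3 CPM in Vector and 51.1, 48.6 and 60.0 CPM in the libraries labelled FTO, without overlap, and rose by 1.61-fold (interval 1.42 to 1.82, adjusted p-value 2.9e-06). Kcne2, a relative known to join Kcnh2 and Kcnq1, was measured from 12, 15 and 20 counts in Vector and 2, 7 and 9 in the libraries labelled FTO, or 0.878, 1.01 and 1.39 CPM in Vector and 0.140, 0.529 and 0.503 CPM in the libraries labelled FTO. On the log2 scale the change was -1.44 (SE 0.434), given as a description. No library labelled FTO reached the lowest Vector value, and the highest count among them was 9. Kcne2 thus met the count rule through Vector only, and its direction was fixed by the rule. Kcnab2, a cytoplasmic beta subunit of Shaker-type channels, fell from 8.34, 10.9 and 8.93 CPM in Vector to 3.79, 3.93 and 5.08 CPM in the libraries labelled FTO. All Vector libraries lay above all those labelled FTO, a 2.18-fold difference (interval 1.72 to 2.76, adjusted p-value 1.7e-05). Its neighbour Nphp4, which overlaps it, was at 10.7 ± 0.516 and 10.9 ± 0.470 CPM. Kcnab1, the other beta subunit, was at 1.98, 2.35 and 2.98 CPM in Vector and 2.53, 2.72 and 2.57 CPM in the libraries labelled FTO and had a log2 change of 0.09 (95% interval -0.37 to 0.55, adjusted p-value 0.725). Kcnip3, also known as a calcium-sensing regulator of transcription, at 1.61, 1.68 and 1.73 CPM in Vector and 1.82, 1.89 and 1.51 CPM in the libraries labelled FTO, had 0.04 (interval -0.48 to 0.56, adjusted p-value 0.887), the smallest change of all members tested, and its sign was not the same in each fit with a library left out.

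Of the 5 calcium- or sodium-activated subunits, 2 were higher, 2 lower and 1 did not pass. Both sodium-activated subunits passed the threshold, though Kcnt2 met the count rule through Vector libraries only, so its direction was fixed by the rule. Kcnt1 was at 0.585, 0.403 and 0.762 CPM in Vector and at 7.08, 8.68 and 9.77 CPM in the libraries labelled FTO, from 8, 6 and 11 up to 101, 115 and 175 counts. Each library labelled FTO lay several times above each Vector library, a rise of 14.5-fold (interval 10.1 to 20.9) with a log2 change of 3.86 (SE 0.246, adjusted p-value 1.8e-09). Kcnt1 reached 10 counts in 1 Vector library and all 3 labelled FTO, so the count rule bears on its value. The rule bears likewise on Kcnmb1 and Kcnk13, which reached 10 counts in all 3 Vector libraries and in 2 and 1 labelled FTO. Kcnt2 was at 3.15, 3.02 and 2.15 CPM in Vector and 0.561, 0.680 and 0.391 CPM in the libraries labelled FTO, where it had 8, 9 and 7 counts. The fitted difference was 5.15-fold (interval 3.25 to 8.19), given as a description for that reason. These paralogs can join in shared channels opened by intracellular sodium, mostly described in neurons.

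The small- and intermediate-conductance calcium-activated channels are opened by calmodulin-bound calcium. Kcnn4, the intermediate-conductance channel linked to proliferation of fibroblasts and smooth muscle, was at 3.66, 4.03 and 2.77 CPM in Vector and 1.19, 0.906 and 1.12 CPM in the libraries labelled FTO. The groups did not overlap, and the fall was 3.22-fold (interval 2.23 to 4.64, adjusted p-value 2.5e-05). Kcnn3 rested on 6, 3 and 3 counts in Vector and 14, 17 and 19 in the libraries labelled FTO. This is 0.439, 0.201 and 0.208 CPM in Vector and 0.982, 1.28 and 1.06 CPM in the libraries labelled FTO. Kcnn3 met the count rule through the latter only, so its direction was fixed by the rule. Its log2 change of 1.95 (SE 0.424) is given as a description. Kcnn1 was at 2.78, 2.15 and 2.77 CPM in Vector and 1.12, 2.49 and 1.84 CPM in the libraries labelled FTO. Its groups overlapped through FTO replicate 2, and its log2 change of -0.50 (95% interval -1.08 to 0.08) did not pass (adjusted p-value 0.117), while without that library it was -0.75 with an adjusted p-value of 0.0288.

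**Figure D3:**
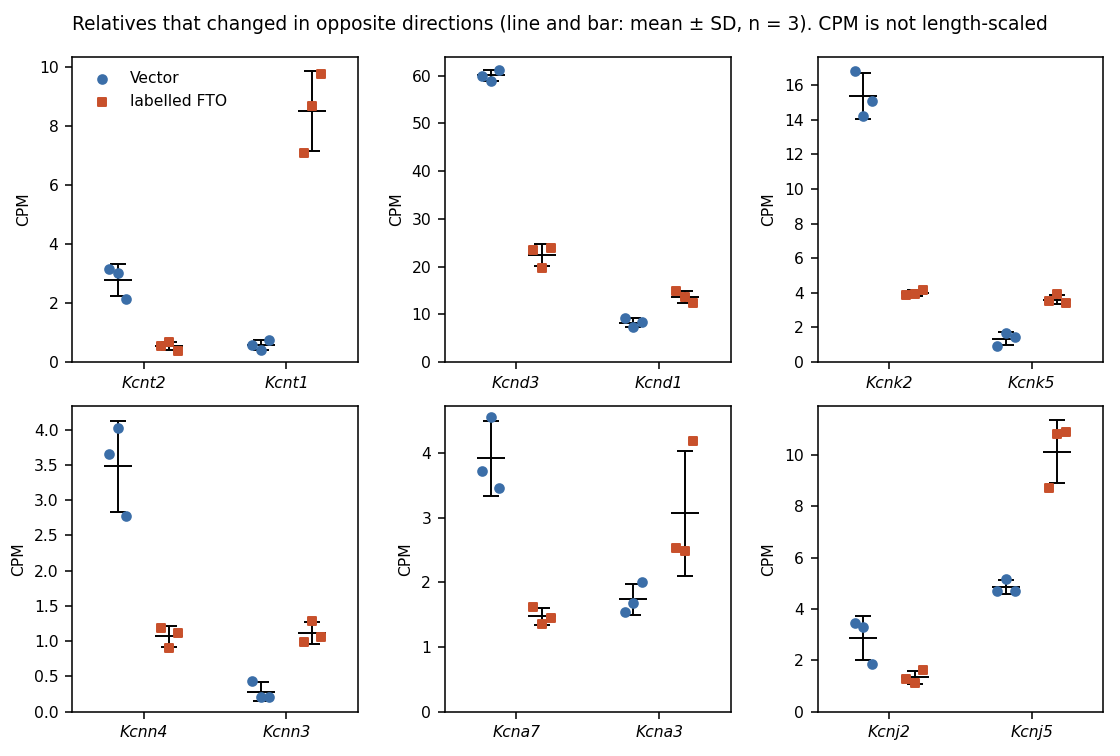
CPM per library of 6 pairs of subunits with the same symbol stem (Kcna, Kcnd, Kcnj, Kcnk, Kcnn or Kcnt), Vector (circles) and labelled FTO (squares), with mean ± SD (n = 3). In each pair a member fell and the other rose with an adjusted p-value under 0.05. The pairs were chosen after their values were seen, and Kcnt2 and Kcnn3 met the count rule in a single group. Subunits of the same stem that moved together (Kcnq1 with Kcnq5, Kcna6 with Kcna7, Kcnk13 with Kcnk2) are not drawn as pairs. CPM is not scaled to transcript length, so heights compare groups within a gene and not the genes of a pair.

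Of 4 inward rectifiers, 3 were tested, with 1 higher, 1 lower and 1 not past the threshold. Kcnj5, a G-protein-gated subunit that in atrial cells pairs with Kcnj3 to answer acetylcholine, was at 4.68, 5.17 and 4.71 CPM in Vector and 8.70, 10.8 and 10.9 CPM in the libraries labelled FTO. The groups were clearly apart, and the rise was 2.09-fold (interval 1.70 to 2.57, adjusted p-value 7.3e-06). Its partner Kcnj3 stayed under the count rule, with 7, 5 and 5 counts in Vector and 6, 2 and 12 in the libraries labelled FTO. Kcnj2, the main subunit of the classical inward rectifier that stabilizes the resting potential, was at 3.44, 3.29 and 1.87 CPM in Vector and 1.26, 1.13 and 1.62 CPM in the libraries labelled FTO. Vector replicate 3 came close to FTO replicate 3 without overlap, and the fall was 2.10-fold (interval 1.39 to 3.17, adjusted p-value 0.00355). Cardiomyocyte markers, whose cells also carry these channels, summed to a higher level in the libraries labelled FTO, and their part in the change of Kcnj5 was not tested. Kcnj14 overlapped between groups at 2.34, 3.02 and 2.49 CPM in Vector and 1.68, 2.04 and 2.35 CPM in the libraries labelled FTO, with a log2 change of -0.36 (95% interval -0.84 to 0.12, adjusted p-value 0.170). Kcnj9, another G-protein-gated subunit, just met the count rule with 14, 6 and 5 counts in Vector and 8, 12 and 12 in the libraries labelled FTO, was not tested and overlaps Igsf8.

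The 4 tandem-pore channels, which carry the background leak of potassium, gave 1 higher, 2 lower and 1 not past the adjusted threshold. Summed over them, CPM was 19.6 to 22.8 in Vector and 10.5 to 11.8 in the libraries labelled FTO. With no scaling to length, Kcnk2 gave 15.4 ± 1.32 and 3.99 ± 0.174 CPM (mean ± SD, n = 3) of these sums. The voltage-gated class also fell in sum, as given above, while the remaining classes had no such fall. Inward rectifiers summed to 9.42 to 11.9 CPM in Vector and 12.2 to 15.5 CPM in the libraries labelled FTO. Calcium- or sodium-activated subunits gave 8.66 to 10.6 and 10.9 to 14.2 CPM, and accessory subunits 61.4 to 67.1 and 58.4 to 70.7 CPM. Kcnk2, a channel opened by membrane stretch and polyunsaturated fatty acids, was at 16.8, 14.2 and 15.1 CPM in Vector and 3.86, 3.93 and 4.19 CPM in the libraries labelled FTO. The values within each group were close together and the groups far apart, a fall of 3.83-fold (interval 3.18 to 4.62), with a log2 change of -1.94 (SE 0.126, adjusted p-value 2.2e-09). An annotated protein-coding gene, LOC120096345, overlaps Kcnk2. Kcnk5, an acid-sensitive channel opened by alkaline pH, went from 0.951, 1.68 and 1.45 CPM in Vector to 3.51, 3.93 and 3.41 CPM in the libraries labelled FTO. Every library labelled FTO exceeded every Vector library, and the rise was 2.62-fold (interval 1.85 to 3.71, adjusted p-value 9.6e-05).

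Kcnk13, a channel known from microglia, was at 2.41, 2.15 and 1.18 CPM in Vector and 0.842, 0.680 and 0.503 CPM in the libraries labelled FTO, or 33, 32 and 17 counts and 12, 9 and 9 counts. Vector replicate 3 was nearest to the other group, and the fall was 2.86-fold (interval 1.69 to 4.82, adjusted p-value 0.00153). Of the 7 macrophage markers, 6 fell and Adgre1 rose, and their part in the fall of Kcnk13 and of Kcnn4, which macrophages also express, was not tested. Kcnk3, another acid-sensitive leak channel, had overlapping groups at 2.56, 1.81 and 1.87 CPM in Vector and 2.31, 2.04 and 3.69 CPM in the libraries labelled FTO, with a log2 change of 0.40 (95% interval -0.16 to 0.97) and an adjusted p-value of 0.189.

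**Figure D4:**
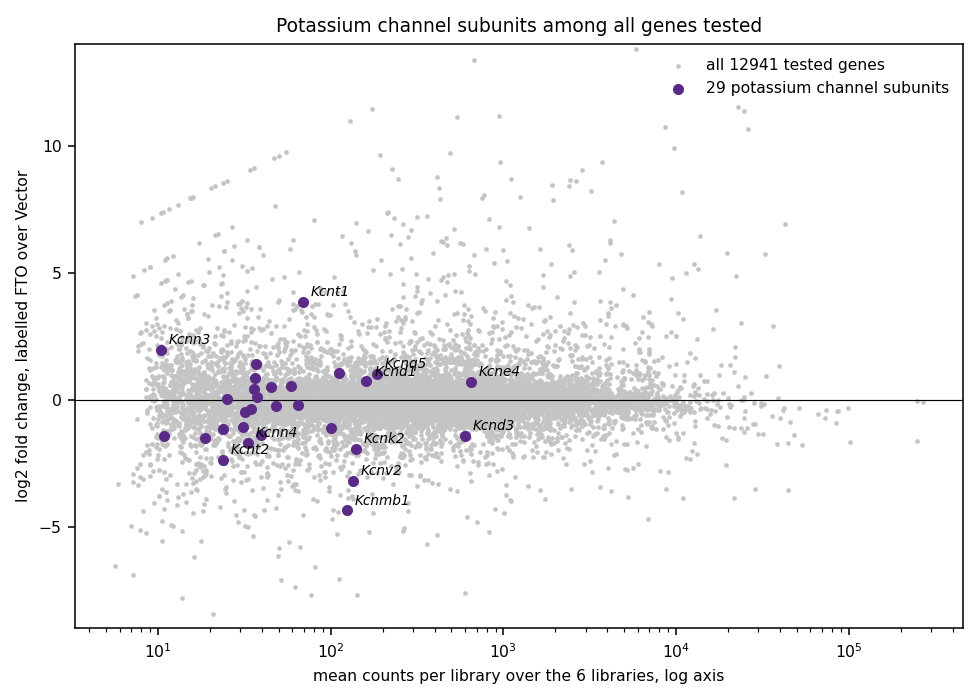
Log2 change from Vector to the libraries labelled FTO against the mean counts per library (log axis) for all 12941 tested genes (grey) and the 29 tested potassium channel subunits (purple). Subunits lay between -4.36 (Kcnmb1) and 3.86 (Kcnt1), within the range of all genes, and 20 of the 29 had a mean under 100 counts.

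Start-site sequences were looked up to show what lies upstream of the members with the largest falls, Kcnmb1 and Kcnv2, and of the sodium-activated subunits Kcnt1 and Kcnt2, these genes being chosen after their values were seen. RefSeq windows of the GRCr8 assembly, 250 bases before to 50 after the annotated start, were matched by symbol for 22 of the 30 members (25 windows, as 3 members had several). A set of 8 motifs was searched on both strands. Capitals mark their matches, with GGGCGG and CCAAT reading CCGCCC and ATTGG where they lie on the other strand.
Kcnmb1, GRCr8 chr10:19061849-19062148, plus strand: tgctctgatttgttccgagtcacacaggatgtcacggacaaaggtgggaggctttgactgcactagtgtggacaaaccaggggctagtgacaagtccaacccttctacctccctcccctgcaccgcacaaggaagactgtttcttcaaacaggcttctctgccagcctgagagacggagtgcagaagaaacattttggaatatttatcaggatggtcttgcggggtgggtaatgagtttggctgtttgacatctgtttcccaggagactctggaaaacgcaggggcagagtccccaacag
Kcnv2, GRCr8 chr1:234412924-234413223, plus strand: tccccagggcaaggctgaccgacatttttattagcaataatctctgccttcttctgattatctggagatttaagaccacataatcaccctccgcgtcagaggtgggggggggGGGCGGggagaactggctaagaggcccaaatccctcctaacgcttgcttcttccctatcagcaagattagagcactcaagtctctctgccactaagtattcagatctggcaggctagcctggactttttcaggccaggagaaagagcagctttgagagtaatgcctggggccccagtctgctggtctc
Kcnt1, GRCr8 chr3:29081089-29081388, plus strand: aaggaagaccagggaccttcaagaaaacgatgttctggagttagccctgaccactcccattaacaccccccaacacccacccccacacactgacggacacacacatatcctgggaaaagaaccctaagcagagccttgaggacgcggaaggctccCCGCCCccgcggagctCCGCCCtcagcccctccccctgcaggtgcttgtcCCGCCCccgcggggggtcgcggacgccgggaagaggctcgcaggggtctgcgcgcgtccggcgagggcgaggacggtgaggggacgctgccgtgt
Kcnt1, GRCr8 chr3:29095846-29096145, plus strand: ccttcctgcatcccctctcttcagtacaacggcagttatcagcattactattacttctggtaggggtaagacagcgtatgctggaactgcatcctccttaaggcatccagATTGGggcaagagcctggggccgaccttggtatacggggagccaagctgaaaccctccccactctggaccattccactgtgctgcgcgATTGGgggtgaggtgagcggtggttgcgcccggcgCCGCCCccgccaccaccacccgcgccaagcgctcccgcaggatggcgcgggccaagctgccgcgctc
Kcnt2, GRCr8 chr13:54215057-54215356, plus strand: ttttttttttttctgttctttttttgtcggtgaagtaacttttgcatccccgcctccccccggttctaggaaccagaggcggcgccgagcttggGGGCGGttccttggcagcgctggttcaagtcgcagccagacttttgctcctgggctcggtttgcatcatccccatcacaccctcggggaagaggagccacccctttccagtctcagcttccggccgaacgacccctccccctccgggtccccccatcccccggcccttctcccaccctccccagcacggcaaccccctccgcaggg

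The window of Kcnmb1 held none of the motifs searched. The GC box GGGCGG occurred once in the Kcnv2 window and once in that of Kcnt2. The upstream Kcnt1 window held it 3 times, and the downstream Kcnt1 window held it once beside 2 copies of the CCAAT box. This motif thus lay in windows of Kcnt1, which rose, and of Kcnv2, which fell. The direction of Kcnt2 was fixed by the count rule. Over the 25 member windows, 15 (60%) held a GC box against 33.1% of all 33469 windows, 7 (28%) a CCAAT box against 37.5%, and 3 (12%) the hypoxia response core ACGTG against 19.3%. The NF-κB motif was in 2 (8%) against 5.02% of all windows, the interferon response motif (GAAA, any 2 bases, GAAA) in 1 (4%) against 3.92%, and the TATA box TATAAA, the AP-1 site TGACTCA and the CArG box in 0, against 14.2%, 4.63% and 1.64%. A match describes letters in these windows only, on an assembly other than the rn6 build named for the counts.

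Genes that work beside these channels were compared as a further list of 40, all in the files, of which 23 were tested. Of these, 18 (78.3%) passed the adjusted threshold, 9 higher and 9 lower, near the 65.9% of all genes, with a median log2 change of -0.13. The threshold of the study was passed by 7 (30.4%), against 19.6% of all genes. Among accessory proteins with other symbols, Abcc9, the cardiovascular sulfonylurea receptor subunit of ATP-sensitive potassium channels, rose from 20.9, 20.3 and 21.6 CPM in Vector to 109, 103 and 129.6 CPM in the libraries labelled FTO, a 5.46-fold difference (interval 4.83 to 6.18, adjusted p-value 8.1e-13). Abcc8, the pancreatic type of the same receptor, was at 3, 10 and 5 counts in Vector and 19, 12 and 19 in the libraries labelled FTO, a log2 change of 1.38 (SE 0.417, adjusted p-value 0.00900). Dpp6, a partner that speeds the transient outward channels, had 19, 18 and 17 counts in Vector and 5, 3 and 3 in the libraries labelled FTO, a log2 change of -2.33 (SE 0.410), given as a description. Dpp6 reached 10 counts in Vector libraries only, so the filter on low counts fixed its direction. Abcc8 reached them in 1 Vector library and all 3 labelled FTO, so the filter bears on its value.

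The sodium-potassium pump brings back the potassium that these channels let out. Of its beta subunits, Atp1b2 rose from 0.951, 0.872 and 0.831 CPM in Vector to 2.03, 2.87 and 3.07 CPM in the libraries labelled FTO (adjusted p-value 1.2e-04). Atp1b3 rose as well, from 265 ± 2.74 to 401 ± 21.2 CPM (mean ± SD, n = 3, adjusted p-value 1.3e-08). Atp1b1 did not pass (adjusted p-value 0.282). The pump regulator Fxyd2 fell from 63.7, 62.1 and 61.7 CPM in Vector to 29.6, 27.1 and 27.2 CPM in the libraries labelled FTO (adjusted p-value 2.0e-10). Of its relatives, Fxyd6 fell too (log2 change -0.65, adjusted p-value 1.6e-07) and Fxyd1 rose (0.77, adjusted p-value 2.7e-05), while Fxyd5 did not pass (adjusted p-value 0.187). Of 6 potassium-chloride and related cotransporters tested, 1 was higher, 3 were lower and 0 passed the threshold of the study, and of the pacemaker channel genes tested Hcn4 was higher (log2 change 0.73, adjusted p-value 0.00955) and Hcn2 lower (-0.31, adjusted p-value 0.0406).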

How the data were processed

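The files deposited by the authors hold unnormalized counts by gene symbol, for 3 Vector libraries and 3 labelled FTO overexpression. The submitters' processing notes name Trimmomatic and the rn6 build. The aligner, counting program, annotation and use of strand are not given in the sources used here, so counts of overlapping genes (16 of the 30 members overlap another annotated gene in RefSeq GRCr8) and of close relatives are uncertain to that extent. The genotype labels gave the groups, and the titles gave the replicate numbers.

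Genes were kept with filterByExpr (minimum count 10), scaled by TMM (factors 0.995 to 1.01) and compared by the two-sided quasi-likelihood test of edgeR 4.0.16 in R 4.3.3 without covariates, adjusted by the Benjamini-Hochberg method over 12941 genes. The SE was derived from the F statistic, and 95% intervals from the SE. No set test was run. Depth was 13178952 to 17857999 counts per library, and floors (3 counts) cover counting error only. No transcript lengths were used, so levels were not compared between genes. Within-group pairs of libraries differed by more than sampling noise (chi-square per degree of freedom 1.58 to 8.38).

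The members, the lists of partner genes and cell type markers, and the tests were chosen with earlier results of these data known. Every member was named, with values per library for those past a 2-fold change and, by class, for the member with the most counts and that with the smallest change. Other values per library, the member pairs drawn and the promoters were chosen after values were seen. Alternatives were DESeq2 1.42.0, other scalings and filters, a replicate block and leaving out each library. The edgeR procedure was tested on simulated counts. Values of some listed genes are not reported here.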

Additional observations from a re-analysis of the deposited data

How the results depend on the processing

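The number of potassium channel subunits past the adjusted threshold was 22, and it was 20 with DESeq2 and 20 to 22 when a single library was left out. The number past the threshold of the study was 17, and 15 to 17 without a library. With DESeq2 size factors, library size alone, no filter, a mean of at least 10 counts or the replicate block, 22 and 17 passed, and the 22 were the same genes in each. The count of all genes past the adjusted threshold ran from 7795 to 9009 and that of partner genes from 15 to 20, against 8531 and 18. The calls lost were those of Kcng2, Kcnq1 and Kcna3, and the call gained that of Kcnn1, with the values given in the report. The call of Kcne2, whose direction the count rule fixed, was lost without Vector replicate 3. Of 29 tested subunits, 22 kept direction and side of the threshold under all 12 alternatives. Kcnab1 changed sign without Vector replicate 1 (-0.0351 to 0.258 on the log2 scale over the fits that left out a library), and Kcnip3 without FTO replicate 1 and without FTO replicate 2 (-0.0162 to 0.144), none of them past the threshold, and the cause was not tested.

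Libraries of like replicate number were not taken as pairs. Their departures from the mean of the group had correlations over genes of 0.00628, -0.0869 and 0.0440, Vector replicate 1 correlated best with FTO replicate 2 (0.122), and with the replicate block 8399 of all genes and 22 of the 29 subunits passed. Low counts limit the precision of subunits near 10 counts, such as Kcnn3, Kcne2 and Kcnj9.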

Other observations

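Potassium channel genes under the count rule were not tested, and some had counts in a single group, as seen after their values were examined. Of the 62, 13 had 0 counts in all 6 libraries and the highest count was 19. Kcnk15, a tandem-pore subunit, had 9, 12 and 8 counts in Vector replicates 1, 2 and 3 and 0, 1 and 0 in the libraries labelled FTO. Kcnb2, a delayed rectifier pore, had 5, 10 and 11 in Vector and 0, 0 and 0 counts in the others, and Kcnj4, an inward rectifier, 4, 4 and 6 in Vector and 0, 1 and 0 in the others. Kcne5, an accessory subunit, went the other way with 0, 1 and 1 in Vector and 10, 19 and 9 counts in the others. Kcnmb4, the relative of Kcnmb1 known from neurons, had 18, 11 and 6 in Vector and 6, 2 and 3 counts in the others and Kcne1, the cardiac partner of Kcnq1, 4, 5 and 1 in Vector and 0, 0 and 0 in the others. Kcnj11, the pore of ATP-sensitive channels that pairs with Abcc8 or Abcc9, had 8, 9 and 8 in Vector and 10, 16 and 8 counts in the others, and Kcnk4, a stretch-sensitive tandem-pore subunit, 7, 14 and 9 in Vector and 6, 7 and 10 in the others. Just inside the rule, Kcne2, Kcnt2, Kcnn3 and Kcnj9 had 10 or more counts in 3 libraries, and just outside it Kcnb2, Kcnmb4, Kcne5, Kcnj11 and Kcnk4 had them in 2.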
